A study of Mus musculus with 8 samples.

Results

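The 10 genes described here belong to bone morphogenetic protein (BMP) signalling and were measured in the aorta of mice given colchicine or saline. They were taken by symbol, as the ligands Bmp2, Bmp4 and Bmp6, the receptors Bmpr1a and Bmpr2, the antagonist Grem1, the inhibitors Bambi and Smad6 and the target genes Id1 and Id3. All 10 were found among the 22063 genes of the deposited table, and all 10 passed the filter on low counts, as did 13431 genes in all. Per the series' design text, the colchicine group (4 libraries) consisted of male C57BL/6J mice gavaged daily with colchicine at 200 µg per kg, and the vehicle group (4 libraries) of such mice gavaged with saline. Mice of both groups were 3 weeks old at the start, ate chow and took 1 g per kg of BAPN (beta-aminopropionitrile) each day in their water, over 3 weeks. BAPN inhibits the enzyme lysyl oxidase, so that elastic fibres and collagen stay poorly crosslinked, and it weakens the aorta of young mice. Colchicine is an anti-inflammatory drug that keeps tubulin from polymerising. Aortas without BAPN were not analysed here, and, although the title speaks of mice with dissection, the labels do not say which mice had one or whether each library came from 1 mouse, so the p-values measure the spread between these libraries.

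BMPs are secreted dimers of the TGF-beta superfamily. They bring together type II receptor kinases, such as Bmpr2, and type I kinases, such as Bmpr1a, of which the type I kinases phosphorylate Smad1, Smad5 and Smad9. These join Smad4 in the nucleus and switch on genes such as Id1 and Id3, whose products hold back basic helix-loop-helix factors, and the feedback inhibitor Smad6. Outside the cell, antagonists such as gremlin 1 (Grem1) bind the ligands, and Bambi is a receptor-like protein without a kinase domain. In the vessel wall the pathway is known for its part in endothelial quiescence, smooth muscle differentiation and calcification, and human BMPR2 is mutated in heritable pulmonary arterial hypertension.

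Libraries held 16.79 to 18.25 M estimated counts in the colchicine group and 15.43 to 18.46 M in the vehicle group. Levels are given as CPM (counts per 1000000 of a library's TMM-scaled total) for one gene across libraries and for sums of markers, and as the deposited TPM (the same kind of share, but of transcripts, which allows for gene length) for the order, sums and ratios of the BMP genes. Vehicle 1 and vehicle 4 stood apart, since haemoglobin genes took 14.9% and 6.21% of their counts, against 0.0419% to 0.318% in the other 6 libraries. All 8 smooth muscle markers were detected in all 8 libraries, which cannot tell aorta from other tissues with smooth muscle. Reads come from whole aortas, so fewer cells of a type and less RNA per cell cannot be told apart.

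Both receptors and both of the more abundant ligands were higher in colchicine aortas. Bmp6, Bmpr1a, Bmpr2 and Bmp4 rose by 1.44, 1.27, 1.16 and 1.11 on the log2 scale, that is 2.72-, 2.42-, 2.24- and 2.15-fold. The inhibitor Smad6 stood at 0.87 and did not pass, and the targets Id1 and Id3, the ligand Bmp2, Bambi and Grem1 did not pass either. By edgeR (quasi-likelihood test, Benjamini-Hochberg adjusted p under 0.05) 4 of the 10 genes were raised and 0 lowered, whereas 17.4% of all tested genes were raised and 17.0% lowered. At an unadjusted p under 0.05, edgeR gave 5 raised and 0 lowered, against 23.6% and 23.4% of all tested genes. After adjustment, DESeq2 gave 5 raised and 0 lowered, against 20.1% and 21.5% of all genes (1 lowered before adjustment, against 25.7%), and limma-voom 5 and 0, against 18.3% and 13.7%. On log2(TPM + 1), with 9 of the 10 genes tested, 5 were raised and 0 lowered, against 17.8% and 6.56% of all genes. The median log2 fold change was 0.51 over the 10 genes and -0.03 over all tested genes. The 2 receptors passed in all 21 other fits, but Bmp4 and Bmp6 did not: without vehicle 1 and 4 only the receptors were raised, Grem1 was lowered, and 20.2% of all tested genes were raised and 20.3% lowered.

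**Figure D1:**
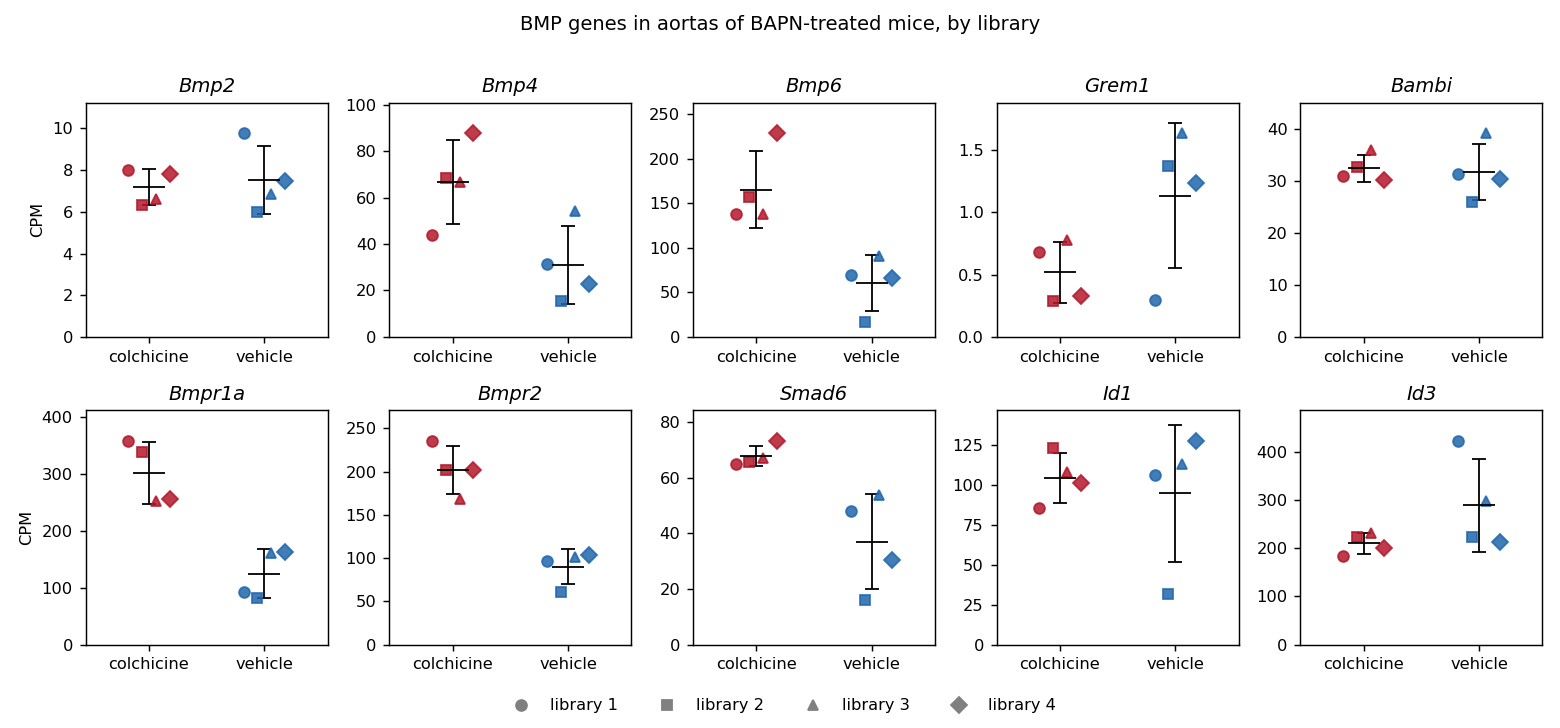
CPM of the 10 genes in each library (y axes start at 0), with colchicine left of vehicle, the symbol giving the library number, and a bar and whiskers for the mean and SD of 4 libraries. Bmp6, Bmpr1a, Bmpr2 and Smad6 do not overlap between the groups, and 21.1% of all tested genes were likewise higher with colchicine without overlap. Vehicle 2 is the lowest vehicle library in 8 of the 10 genes.

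Upstream sequences were matched for 7 of the 10 genes in a RefSeq table (GRCm38.p6), since Bmp4, Bmp6, both receptors, Smad6, Id3 and Grem1 are there. The 250 bases before each start were searched on both strands for GGCGCC, a palindrome known as a GC-rich element bound by BMP SMADs, for GTCT, the core of the SMAD-binding element, and for the E-box CANNTG. The palindrome was present in 3 of 7 windows (Bmpr1a, Bmpr2 and Grem1), against 9.59% of 32851 windows of that length. The SMAD core was present in 5 of 7, against 82.9%, and the E-box in 2 of 7, against 66.2%. The palindrome starts 198 bases before the start of Bmpr1a, 105 before that of Bmpr2 and 78 before that of Grem1. Starts here are those of the RefSeq table. By the GENCODE M21 positions, the windows of Bmp6, Bmpr1a, Bmpr2 and Id3 lie inside the gene, past its GENCODE start. The 7 windows had 62.8% to 78.8% G and C, and the median window had 52.4%. A match describes letters and is not a binding site, and these data hold no measure of SMAD binding. Windows of Bmp4 and Bmpr1a, which rose, of the feedback gene Smad6 and of the antagonist Grem1 are shown 5′ to 3′ on the gene's strand with the palindrome in capitals. Windows that lie in exons annotated in GENCODE M21 (Bmp6, Bmpr2 and Id3) are left out, and for Bmpr1a only the 109 bases outside such exons are shown.
Bmp4, chr14:46390670-46390919, minus strand: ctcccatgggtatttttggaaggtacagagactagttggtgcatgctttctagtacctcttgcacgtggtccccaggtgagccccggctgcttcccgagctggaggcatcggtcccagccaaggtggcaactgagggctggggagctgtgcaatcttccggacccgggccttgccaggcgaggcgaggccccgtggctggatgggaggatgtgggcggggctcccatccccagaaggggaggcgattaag
Bmpr1a, chr14:34502688-34502796, minus strand: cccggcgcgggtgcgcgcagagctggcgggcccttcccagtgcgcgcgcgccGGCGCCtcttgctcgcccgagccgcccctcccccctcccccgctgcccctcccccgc
Smad6, chr9:64022060-64022309, minus strand: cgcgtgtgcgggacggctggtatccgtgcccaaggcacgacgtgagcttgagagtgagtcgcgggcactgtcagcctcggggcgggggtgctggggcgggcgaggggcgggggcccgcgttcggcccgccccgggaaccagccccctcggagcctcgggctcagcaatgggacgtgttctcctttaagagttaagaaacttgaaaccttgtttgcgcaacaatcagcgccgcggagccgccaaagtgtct
Grem1, chr2:113758649-113758898, minus strand: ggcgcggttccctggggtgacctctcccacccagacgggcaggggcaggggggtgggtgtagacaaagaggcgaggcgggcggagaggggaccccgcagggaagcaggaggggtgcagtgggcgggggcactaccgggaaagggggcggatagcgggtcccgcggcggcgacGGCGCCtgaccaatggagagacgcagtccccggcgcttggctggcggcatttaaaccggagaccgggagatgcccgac

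The ligands differed in level and in change. Bmp4, a ligand of smooth muscle and endothelial cells (ENSMUSG00000021835, GRCm38 chromosome 14, 46383520 to 46390669, minus strand), was at 43.8, 68.6, 66.7 and 87.6 CPM in colchicine 1 to 4, against 31.3, 15.5, 54.3 and 22.7 CPM in vehicle 1 to 4. The groups overlapped, because vehicle 3 exceeded colchicine 1, and the other 3 colchicine libraries were above every vehicle library. The change was 1.11 ± 0.37 (SE) with a 95% interval of 0.27 to 1.94 and an adjusted p = 0.0453 (edgeR), close to the threshold. It did not pass when any library other than vehicle 3 was left out (edgeR adjusted p of 0.0565 to 0.118) nor without TMM factors (0.0541), and without vehicle 1 and 4 it was 0.94 (0.157).

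Bmp6, which in mice is known as an endothelial ligand that drives hepcidin in the liver (ENSMUSG00000039004, chromosome 13, 38345107 to 38500302, plus strand), was at 138, 157, 138 and 229 CPM in colchicine 1 to 4 and at 70.0, 17.0, 91.0 and 65.8 CPM in vehicle 1 to 4. All 4 colchicine libraries were above all 4 vehicle libraries, and vehicle 2 was far below the other vehicle libraries. Groups did not overlap in 39.1% of all tested genes, 21.1% with colchicine higher and 17.9% with colchicine lower. The change was 1.44 ± 0.43 (95% interval 0.46 to 2.42, edgeR adjusted p = 0.0325). It did not pass without any 1 of the 4 colchicine libraries, vehicle 1 or vehicle 4 (edgeR adjusted p of 0.0508 to 0.0901), nor without vehicle 1 and 4 together (1.62, 0.069). Some reads may be shared: 224 of its 3900 exonic bases lie within Txndc5 on the other strand, 4 of its 8 counts were not whole, and the sources used here do not say whether counting used strand. Txndc5 itself, a disulfide isomerase gene, stood at -0.22 ± 0.22 (edgeR adjusted p = 0.446).

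Bmp2, which is known to promote osteogenic change in vessels (ENSMUSG00000027358, chromosome 2, 133552159 to 133562885, plus strand), was at 7.98, 6.31, 6.60 and 7.83 CPM in colchicine 1 to 4, against 9.76, 5.98, 6.84 and 7.50 CPM in vehicle 1 to 4. The groups overlapped fully, since the highest and the lowest library were both vehicle ones. Its change was -0.06 ± 0.20, with a 95% interval of -0.52 to 0.39 (edgeR adjusted p = 0.818). The sign depended on the scaling, at 0.06 without TMM factors and 0.29 on log2(TPM + 1), where the median of all genes was 0.07 and 0.35.

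Among the receptors, Bmpr1a, the widely expressed type I kinase for Bmp2 and Bmp4 (ENSMUSG00000021796, chromosome 14, 34410734 to 34503341, minus strand), was at 358, 339, 253 and 256 CPM in colchicine 1 to 4 and at 93.05, 81.8, 161 and 163 CPM in vehicle 1 to 4. Even the lowest colchicine library was above the highest vehicle library. The change was 1.27 ± 0.26 (95% interval 0.67 to 1.87, edgeR adjusted p = 0.00948), and over the 21 other fits it ran from 1.06 to 1.79 with adjusted p of 8.7e-05 to 0.0411. In GENCODE M21, 290 of its 6351 exonic bases lie within the antisense gene Gm17110, whose reads could not be told apart without strand.

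Bmpr2, the type II kinase dedicated to BMPs (ENSMUSG00000067336, chromosome 1, 59763400 to 59879014, plus strand), was at 235, 202, 168 and 202 CPM in colchicine 1 to 4, against 96.6, 60.5, 101 and 103 CPM in vehicle 1 to 4. There was again no overlap, and 3 vehicle libraries lay close together with vehicle 2 below them. The change was 1.16 ± 0.20 (95% interval 0.72 to 1.61, edgeR adjusted p = 0.00596), with 1.01 to 1.59 over the 21 other fits. Summed over the 2 receptors, the level was 123 to 188 TPM in colchicine libraries and 22.8 to 81.6 TPM in vehicle libraries. TPM sums carry no TMM scaling, and the median change of all genes on log2(TPM + 1) was 0.35. The 22.8 TPM was that of vehicle 1, where haemoglobin genes took 14.9% of the counts.

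**Figure D2:**
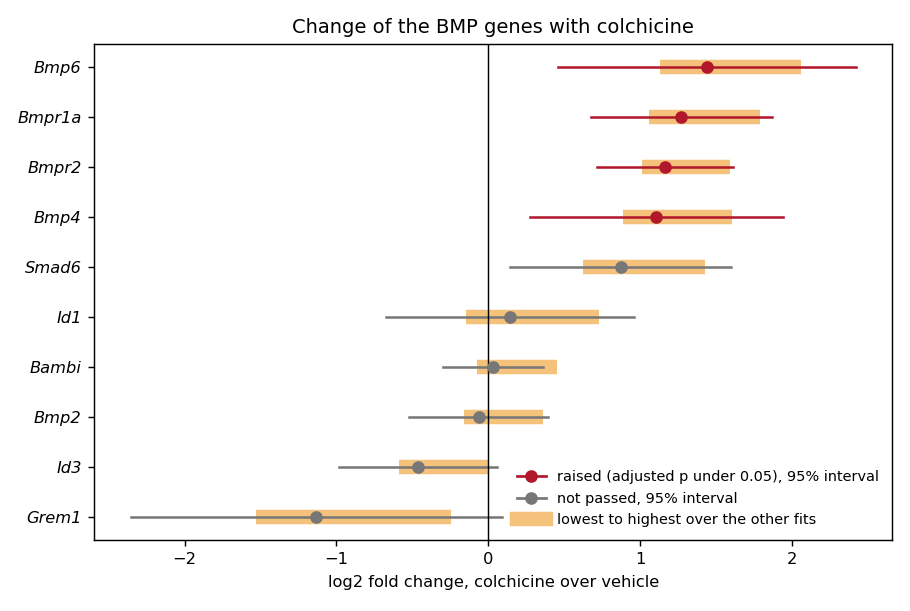
Log2 fold change, colchicine over vehicle, of the 10 genes, with points and lines for the edgeR estimate and its 95% interval, red where the gene passed, and orange bands for the range over the other fits. The bands of Bmp4, Bmp6, Bmpr1a, Bmpr2 and Smad6 lie above 0, and those of Bmp2, Id1, Id3 and Bambi include 0.

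The antagonist Grem1 (ENSMUSG00000074934, chromosome 2, 113746164 to 113758646, minus strand) was near the limit of detection. It had 12, 5, 14 and 6 counts in colchicine 1 to 4, against 4, 25, 31 and 20 counts in vehicle 1 to 4. That is 0.518 ± 0.247 CPM in colchicine and 1.13 ± 0.58 CPM in vehicle libraries (SD, n = 4 each), where 3 counts correspond to 0.158 to 0.22 CPM. On the CPM scale vehicle 1, with 4 counts the lowest of all 8 libraries before scaling, was at 0.294 CPM, just above the lowest colchicine library (0.287 CPM), and the other 3 vehicle libraries were above all colchicine libraries. The change of -1.13 ± 0.54 did not pass (95% interval -2.36 to 0.09, edgeR adjusted p = 0.13), and it passed without vehicle 1 (-1.53, adjusted p = 0.032) and without vehicle 1 and 4 (-1.52, 0.0407).

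Bambi, the receptor-like inhibitor (ENSMUSG00000024232, chromosome 18, 3507923 to 3516404, plus strand), had the smallest difference of the 10 genes in the edgeR fit over all libraries, though not in every other fit. It was at 31.0, 32.8, 35.9 and 30.1 CPM in colchicine 1 to 4 and at 31.3, 26.1, 39.2 and 30.5 CPM in vehicle 1 to 4, so that the colchicine values lay inside the vehicle range. The change was 0.03 ± 0.15 (95% interval -0.30 to 0.36, edgeR adjusted p = 0.879). It was -0.07 without vehicle 1 and 0.46 on log2(TPM + 0.1), so it had no stable sign. The median of all genes was -0.11 and 0.40 in those fits.

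Smad6, the inhibitory SMAD that BMP signalling switches on as feedback (ENSMUSG00000036867, chromosome 9, 63953076 to 64022059, minus strand), was at 64.9, 65.7, 67.1 and 73.1 CPM in colchicine 1 to 4. It was at 47.9, 16.0, 53.9 and 30.3 CPM in vehicle 1 to 4. The groups did not overlap, and the colchicine libraries lay close together (coefficient of variation 5.51%) while the vehicle libraries were spread out (46.6%). The change was 0.87 ± 0.32 with a 95% interval of 0.14 to 1.60, and the edgeR adjusted p = 0.0626 missed the threshold. It passed with DESeq2 (0.86, adjusted p = 0.032), limma-voom (1.02, 0.0462) and log2(TPM + 1) (1.38, 0.0197), and without vehicle 2 (0.62, 0.0449) or vehicle 3 (1.08, 0.0336). On log2(TPM + 1) the median of all genes was 0.35.

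The targets Id1 and Id3 were the most abundant of the 10 genes. Id1 (ENSMUSG00000042745, chromosome 2, 152736251 to 152737410, plus strand) was at 85.4, 123, 108 and 101 CPM in colchicine 1 to 4, against 106, 31.8, 113 and 127 CPM in vehicle 1 to 4. Apart from the low vehicle 2, the vehicle libraries lay within or above the colchicine range. Its change was 0.14 ± 0.36 (95% interval -0.68 to 0.96, edgeR adjusted p = 0.771). It was -0.14 without vehicle 2 and 0.72 on log2(TPM + 1), neither of which passed. In the latter fit the median of all genes was 0.35.

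Id3 (ENSMUSG00000007872, chromosome 4, 136143497 to 136145755, plus strand) was at 184, 224, 232 and 201 CPM in colchicine 1 to 4 and at 423, 224, 299 and 213 CPM in vehicle 1 to 4. Vehicle 1 and 3 were above all colchicine libraries, and vehicle 2 and 4 were within their range. The change of -0.46 ± 0.23 did not pass (95% interval -0.98 to 0.06, edgeR adjusted p = 0.143). On log2(TPM + 1) it was 0.0038, in a fit where the median of all genes was 0.35. The intervals of both Id genes hold 0, and that of Id1 is the wider.

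On the TPM scale, which allows levels of different genes to be compared, the order in colchicine libraries was Id3, Id1, Bmpr1a, Bmp6, Bmp4, Smad6, Bmpr2, Bambi, Bmp2 and Grem1. Id3 averaged 369.9 ± 25.6 TPM in colchicine and 378 ± 105 TPM in vehicle libraries (SD, n = 4 each), a higher level than 97.2% of the tested genes in colchicine libraries. Bmpr1a, Bmp6 and Bmp4 averaged 122 ± 24.8, 104 ± 30.6 and 79.1 ± 22.8 TPM in colchicine libraries, and these neighbours overlapped, as did Bmp4 and Smad6 (51.5 ± 4.36 TPM). In vehicle libraries Bmpr1a, Bmp4, Bmp6, Smad6 and Bmpr2 averaged 39.5 ± 21.6, 30.2 ± 23.8, 29.6 ± 20.6, 21.5 ± 13.3 and 12.2 ± 4.52 TPM, and each overlapped the next. Bmp2 averaged 4.57 ± 0.72 TPM in colchicine and 3.56 ± 0.67 TPM in vehicle libraries, and Grem1 0.28 ± 0.129 and 0.542 ± 0.349 TPM. The order of the groups' means was the same but for Bmp4 and Bmp6, which changed places.

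**Figure D3:**
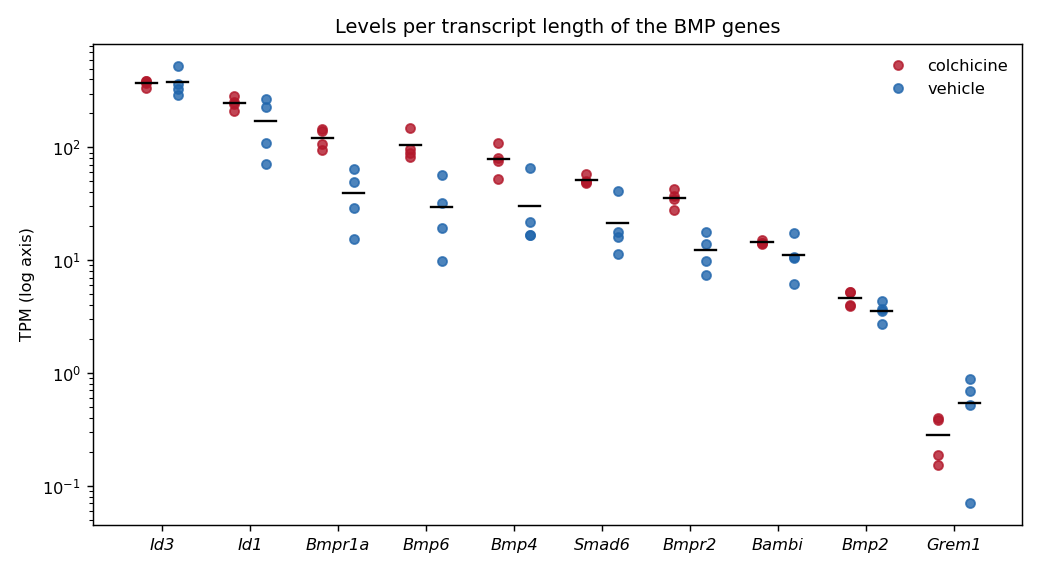
TPM of the 10 genes (log axis) in each of the 4 colchicine libraries (red) and 4 vehicle libraries (blue), with a line at each mean, ordered by the colchicine mean. Levels run from Id3 at 369.9 TPM to Grem1 at 0.28 TPM in colchicine libraries, and Bmp6, Bmpr1a, Bmpr2 and Smad6 are apart between the groups. TPM carries no TMM scaling, and the median change of all genes on log2(TPM + 1) was 0.35. By CPM, 21.1% of all tested genes were higher with colchicine without overlap, and no such share was taken on TPM.

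The vehicle libraries differed among themselves far more than the colchicine libraries. All 10 genes had a higher coefficient of variation of CPM in vehicle libraries, as did 84.6% of all tested genes (median 12.7% in colchicine and 27.2% in vehicle libraries). On the CPM scale vehicle 2 was the lowest vehicle library for 8 of the 10 genes, although it was lowest for 28.4% of all tested genes. Vehicle 3 was the highest for 5 of the 10, against 20.2% of all tested genes. The low library depended on the scale. By TPM, vehicle 1 was below vehicle 2 for Bmp2, Bmp4, Bmpr1a, Bmpr2, Grem1, Id3 and Bambi. Vehicle 2 was below vehicle 1 for Bmp6, Id1 and Smad6. Haemoglobin genes took 0.282% of the counts in vehicle 2 and 0.0419% in vehicle 3, so both had little of it.

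The smooth muscle markers were higher in colchicine libraries, and the endothelial and fibroblast lists were mixed. The 8 smooth muscle markers summed to 23402 to 31982 CPM in colchicine libraries and 6375 to 21710 CPM in vehicle libraries. Of the 8, 4 were raised and 0 lowered, whereas 17.4% of all tested genes were raised and 17.0% lowered. Myh11, smooth muscle myosin, rose by 1.71 ± 0.52 (edgeR adjusted p = 0.0331). Vehicle 2, the low library for most members by CPM, also had the lowest smooth muscle sum (6375 CPM) and the lowest endothelial sum (1269 CPM). Its fibroblast sum was the highest (39132 CPM). The 12 endothelial markers summed to 1932 to 2858 CPM in colchicine and 1269 to 2030 CPM in vehicle libraries. Of the 12, 3 were raised (25%) and 2 lowered (16.7%), near the shares of all tested genes, with a median log2 fold change of -0.29. Pecam1 made up much of that sum, and the other 11 markers summed to 1009.7 to 1557 CPM in colchicine and 911 to 1435 CPM in vehicle libraries, which overlapped. The junction gene Pecam1 rose by 0.95 ± 0.24 (adjusted p = 0.0176) while Cdh5, VE-cadherin, fell by 0.83 (SE 0.23, adjusted p = 0.0256, both edgeR). The 8 fibroblast markers summed to 9754 to 12196 CPM in colchicine and 3939 to 39132 CPM in vehicle libraries, with 1 raised and 0 lowered. The part of these cell types in the changes of the BMP genes was not tested.

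Most macrophage, neutrophil and erythroid markers tested were lowered, against 17.0% of all tested genes. The 8 macrophage markers summed to 294 to 560.0 CPM in colchicine and 862 to 2037 CPM in vehicle libraries, with 0 raised and 5 lowered. The 8 neutrophil markers summed to 3.06 to 5.11 CPM in colchicine and 13.0 to 2715 CPM in vehicle libraries, and 3 of the 4 tested were lowered. The high neutrophil sums were those of vehicle 1 (2715 CPM) and vehicle 4 (711 CPM), against 19.9 CPM in vehicle 2 and 13.0 CPM in vehicle 3. Camp, Cxcr2 and Ly6g were at 0 in some libraries. Of the erythroid list 7 of 8 genes were in the table, with sums of 882 to 3099 CPM in colchicine and 389 to 197480 CPM in vehicle libraries, and 5 of the 6 tested were lowered. The high erythroid sums were those of vehicle 1 and 4, whereas vehicle 2 (2877 CPM) lay within the colchicine range and vehicle 3 (389 CPM) below it. Lymphatic markers summed to 41.5 to 55.2 CPM in colchicine and 162 to 394 CPM in vehicle libraries (3 of 6 lowered), and cartilage markers to 67.3 to 161 CPM and 80.9 to 958 CPM (3 of 5 tested lowered). Brown adipocyte markers summed to 26.4 to 75.9 CPM in colchicine and 16.1 to 267 CPM in vehicle libraries (1 of 5 tested lowered), and white adipocyte markers to 65.6 to 243 CPM and 41.2 to 1101 CPM (0 of 5 tested called). No marker of these lists was at 0 in all libraries. Their part in the results was not tested.

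**Figure D4:**
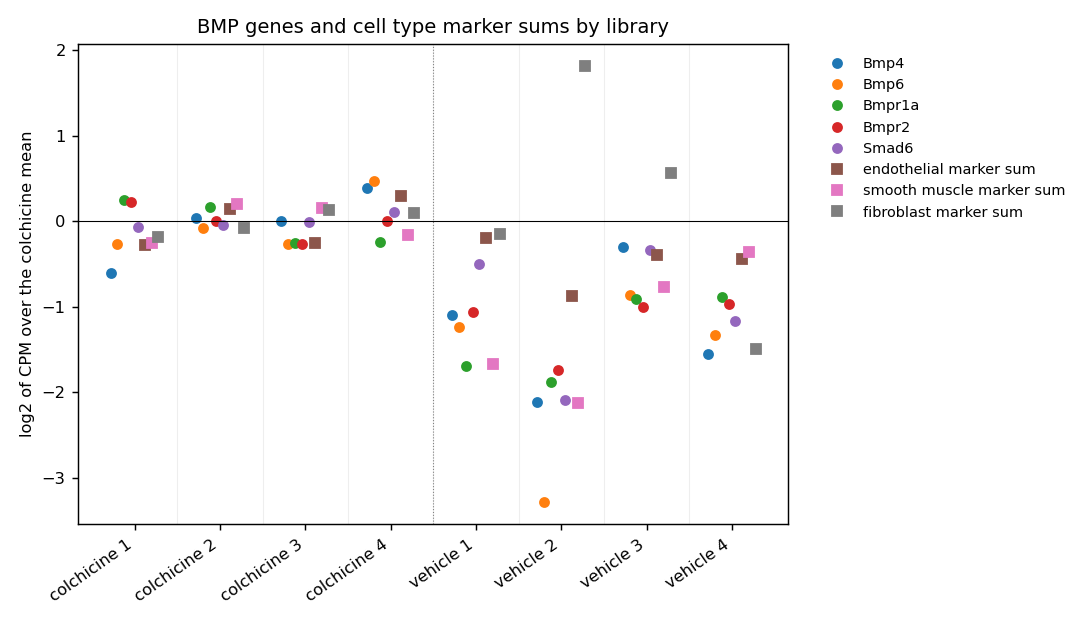
Log2 of CPM over the mean of the colchicine libraries, for 5 BMP genes (circles) and for the summed markers of 3 cell types (squares), in each library. Vehicle 2 shows the lowest values of all 5 BMP genes and of the smooth muscle and endothelial sums, together with the highest fibroblast sum (39132 CPM).

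Of 58 other genes of the pathway, listed by their textbook roles, 48 were tested, 13 were raised (27.1%) and 5 lowered (10.4%), against 17.4% and 17.0% of all tested genes. Their median log2 fold change was 0.31. Among 11 other ligands only 4 were abundant enough to be tested. Bmp3, known as a BMP that opposes osteogenic members of the family, was at 26.0 to 86.1 CPM in colchicine and 4.72 to 18.5 CPM in vehicle libraries and rose by 2.15 ± 0.49 (edgeR adjusted p = 0.0125). Gdf6 was at 2.38 to 6.96 CPM in colchicine and 2.83 to 17.2 CPM in vehicle libraries and fell by 1.73 (SE 0.55, adjusted p = 0.0397), a call lost in 12 of 21 other fits. Groups overlapped for Gdf6 and not for Bmp3.

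Of 9 other receptors and co-receptors, all tested, 3 were raised (33.3%) and 0 lowered, against 17.4% and 17.0% of all tested genes. Bmpr1b, another type I receptor for BMPs, did not overlap between the groups, at 43.6 to 61.8 CPM in colchicine and 5.43 to 17.9 CPM in vehicle libraries. It rose by 2.27 ± 0.32 (edgeR adjusted p = 0.00431) and passed in all 21 other fits. The type II receptor Acvr2a, shared with activins, rose by 0.76 ± 0.20 (adjusted p = 0.0225, lost in 6 other fits), and the co-receptor Rgmb by 0.65 ± 0.10 (adjusted p = 0.00507, lost in 2). Acvr1 and the endothelial receptors Acvrl1 and Eng, named after their values were seen, did not pass, at 0.12 ± 0.14, 0.01 ± 0.18 and -0.48 ± 0.23.

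Of 18 antagonists and extracellular modulators, 16 were tested, 2 raised and 2 lowered (12.5% each), against 17.4% and 17.0% of all tested genes. Twsg1, a secreted binder that can promote or oppose BMPs, was at 431 to 512 CPM in colchicine and 123 to 239 CPM in vehicle libraries and rose by 1.42 ± 0.26 (edgeR adjusted p = 0.00685). Crim1, a membrane protein that binds BMPs, rose by 0.77 ± 0.17 (adjusted p = 0.012, lost in 1 other fit). Tll1, a tolloid-like protease that can cut the antagonist chordin, was low in all libraries and fell by 3.17 (SE 0.81, adjusted p = 0.0185), to 0.607 ± 0.499 CPM in colchicine, against 5.55 ± 4.86 CPM in vehicle libraries (SD, n = 4 each). It stood at -3.79 without colchicine 1, -2.51 without vehicle 1 and -1.02 on log2(TPM + 1), and it did not pass without colchicine 2 or colchicine 4 (adjusted p of at most 0.0526). The fourth, Bmper, named after its value was seen, fell by 1.88 (SE 0.48, adjusted p = 0.0191). Sost, which encodes sclerostin, was also named after its value was seen. It averaged 759 ± 177 CPM in colchicine and 194 ± 172 CPM in vehicle libraries, without overlap. Its change of 1.97 ± 0.69 just missed the threshold (edgeR adjusted p = 0.0526).

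Of 10 signal transducers and regulators, all tested, 4 were raised (40%) and 0 lowered, against 17.4% and 17.0% of all tested genes. Smad9, a receptor-activated SMAD, was at 16.98 to 22.0 CPM in colchicine and 1.37 to 8.05 CPM in vehicle libraries and rose by 2.08 ± 0.49 (edgeR adjusted p = 0.0141). The ubiquitin ligase Smurf2, which marks SMADs and receptors for destruction, rose by 0.66 ± 0.13 (adjusted p = 0.0082), and Ppm1a, a phosphatase that acts on SMADs, by 0.58 ± 0.14 (adjusted p = 0.0151, lost in 4 other fits). The fourth, Smad4, named after its value was seen, rose by 0.33 ± 0.10 (adjusted p = 0.0365). Smad1 and Smad5, which carry the same signal as Smad9, were named likewise and did not pass, at -0.17 ± 0.17 and 0.01 ± 0.13.

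Of 10 further target genes, 9 were tested, 3 raised (33.3%) and 2 lowered (22.2%), against 17.4% and 17.0% of all tested genes. Atoh8, a transcription factor known as a BMP target in endothelium, was at 53.1 to 69.7 CPM in colchicine and 18.985 to 43.7 CPM in vehicle libraries and rose by 0.88 ± 0.24 (edgeR adjusted p = 0.0243, lost in 4 other fits). The osteogenic factor Runx2 was at 1.13 to 3.40 CPM in colchicine and 6.89 to 13.0 CPM in vehicle libraries and fell by 2.33 (SE 0.40, adjusted p = 0.00596, lost in 1 other fit and at -1.26 on log2(TPM + 1)). Spp1, the matrix protein osteopontin, which macrophages also make, fell by 5.17 (SE 1.33, adjusted p = 0.0187), to 1.148 to 64.5 CPM in colchicine, against 193 to 1165 CPM in vehicle libraries. Its size was unstable, at -7.50 without colchicine 4 and -6.60 with limma-voom, and it did not pass without colchicine 1 (adjusted p = 0.0606). Macrophage markers were lower in the same libraries, as given above, and their part in the fall of Spp1 was not tested. Id4 (1.73 ± 0.49, adjusted p = 0.0269) and Msx2 (2.22 ± 0.72, 0.0418), named after their values were seen, also rose, so that among the 4 Id genes 1 was raised, and Id2, at 0.88 ± 0.34, did not pass (0.0711).

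**Figure D5:**
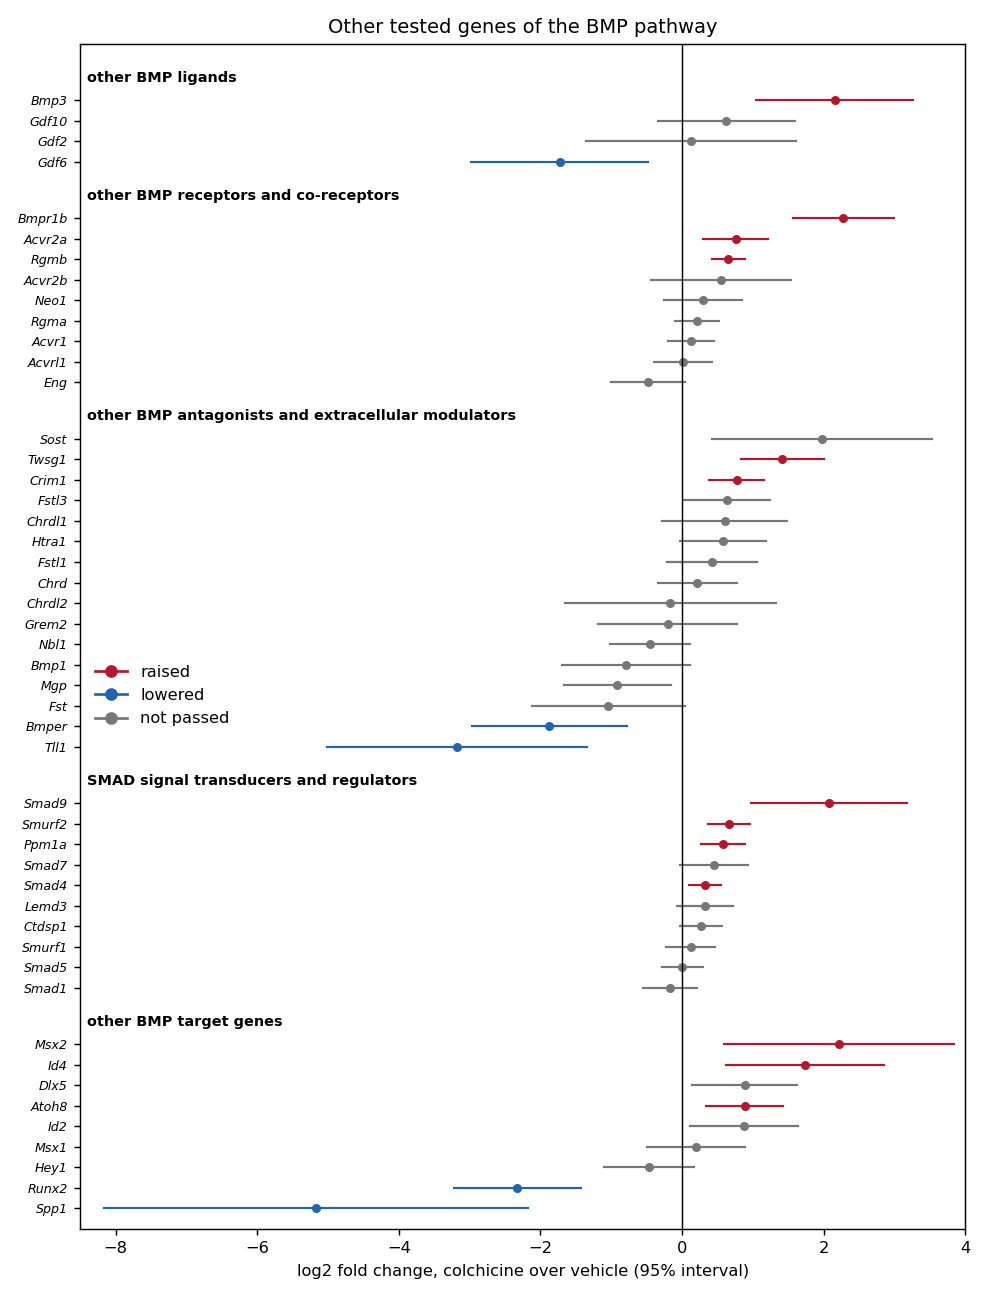
Log2 fold change, colchicine over vehicle, with its 95% interval (edgeR) for the 48 tested genes outside the 10, grouped by role, red where raised, blue where lowered and grey where not passed. Receptors and signal transducers hold 7 raised genes and 0 lowered ones, and the antagonists and extracellular modulators together hold 2 of each. Of all tested genes, 17.4% were raised and 17.0% lowered.

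Genes with the most similar pattern were sought among 9301 genes with a mean CPM of at least 10, by the Pearson correlation of log2 CPM over the 8 libraries. These libraries share the split by treatment, so the values are given as a description. Ccdc186 (r = 0.998) was among the genes most like Bmpr1a. Smim10l1 (r = 0.999) and Rbms3, an RNA-binding protein (r = 0.997), were most like Bmpr2. Ceruloplasmin, Cp (r = 0.973), was among the genes most like Bmp6, and most like Bmp4 were the phospholipase gene Plcd3 and Heg1, a receptor at endothelial junctions (r = 0.97 each). Of these 6 genes all but Plcd3 (0.37 ± 0.19, adjusted p = 0.16) passed the edgeR test themselves. They were picked for their likeness to called genes over the same 8 libraries, so their passing is no independent result.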

How the data were processed

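RNA from aortas was sequenced in 8 libraries, made with a SMARTer mRNA kit per the labels' protocols. Genome build mm10 comes from the submitters' processing notes, while the sources used here give no aligner, counter or annotation. Per the file headers, the table deposited by the authors holds estimated counts (8.07% to 8.94% of a library's values were not whole) and TPM for each Ensembl gene. The header of 1 TPM column lacked the unit, and its values summed to 1000000 like the other 7.

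Estimated counts were rounded. Genes kept by filterByExpr (13431 of 22063) were fitted with edgeR 4.0.16 (R 4.3.3, quasi-likelihood, two-sided, TMM factors, no covariate) over all 8 libraries, with Benjamini-Hochberg adjustment across every tested gene (threshold 0.05). The standard error of a change was taken as its size over the root of the F statistic. Rows without a symbol (30) held 5.89e-05% of the counts and stayed in the library totals. Other fits, 21 in all, used DESeq2 1.42.0, limma-voom and limma-trend on log2(TPM + 1) or log2(TPM + 0.1) (limma 3.58.1, a mean of 1 TPM or more required in 1 group or both), other scalings, other filters, a robust dispersion, a block for the replicate number, and left-out libraries. The fit was also run on simulated counts, with their dispersion capped at 0.05 to resemble the colchicine libraries. That run therefore does not cover a spread as wide as that of the vehicle libraries. Gene positions are those of GENCODE M21 (GRCm38, which UCSC calls mm10).

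The 10 genes, the lists and the alternatives were chosen with earlier results of these data known. Of each pathway list the text names up to 3 called genes with the smallest adjusted p, and other names are said to be chosen after their values were seen. The 95% intervals of changes come from the edgeR fit and cover the spread between libraries, whereas floors of 3 counts cover counting error only. No batch is given in the labels. A part of the comparison of similar patterns is not reported here.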

Additional observations from a re-analysis of the deposited data

Results flagged for a closer look

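Among 20 groups of 4 libraries (10 genes in 2 groups), 1 held a library far from its fellows, and chance alone gives about 1 in 20. Bmpr2 in vehicle 2 was at 60.5 CPM, below the other 3 vehicle libraries (96.6 to 103 CPM), with a gap to the nearest that took 0.85 of the group's range, above Dixon's 95% critical value for 4 samples. Without vehicle 2 the change of Bmpr2 was 1.01 (edgeR adjusted p = 0.00785).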

How the results depend on the processing

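Bmpr1a and Bmpr2 kept their direction and passed in all 21 other fits, and Bmp4 and Bmp6 kept their direction in all 21. With DESeq2 Smad6 (0.86) passed, as with limma-voom (1.02), where 3 other pathway genes were lowered. Without TMM factors Bmp4 (1.19) did not pass and Bmp2 turned to 0.0625. Without vehicle 1 and 4, Bmp4 (0.94) and Bmp6 (1.62) did not pass, Grem1 (-1.52) passed, Bmp2 (0.17) and Bambi (-0.0023) changed sign, 2 of the 10 genes were raised and 1 lowered, and 8 other pathway genes were lowered. On log2(TPM + 1), log2(TPM + 0.1) and unfiltered log2(TPM + 1), Smad6 passed (1.38, 1.43 and 1.38), Bmp2 (0.29, 0.36 and 0.29) and Id3 (0.0038, 0.0039 and 0.0038) changed sign, 863, 867 and 784 genes were lowered, and 3, 3 and 2 other pathway genes were. The median change of all genes was 0.35, 0.40 and 0.15 there, and raised genes made up 73.1%, 71.1% and 69.0% of the calls, against 50.7% in edgeR. The cause of these differences was not tested.

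With single libraries left out, changes ran from 0.88 to 1.498 (Bmp4), 1.13 to 1.66 (Bmp6), 0.62 to 1.08 (Smad6), -1.53 to -0.95 (Grem1), -0.14 to 0.31 (Id1) and -0.0716 to 0.114 (Bambi). Of the 10 genes 2 to 5 were raised and 0 to 1 lowered, of the other pathway genes 7 to 15 were raised and 2 to 9 lowered, and of all genes 898 to 2420 were raised and 1309 to 2642 lowered (2342 and 2277 with all libraries).

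Replicate numbers do not pair the libraries by the labels, and same-numbered libraries had correlations of their deviations of -0.25 to 0.03, with 0 of 8 closest to its own number. With the number as a block Bmp4 (1.22) did not pass, 1121 genes were raised and 1184 lowered, and of the other pathway genes 8 were raised and 3 lowered. Grem1 could not be fitted where a CPM of 1 in 4 libraries or a mean TPM of 1 was required. Its 4 to 31 counts per library limit its precision.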

Other observations

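Ratios within a library, on log2 TPM, give the balance of the members without a test. Bmp4 over Grem1 was 7.11 to 9.19 in colchicine and 4.60 to 7.90 in vehicle libraries, which overlapped, and rested on at most 31 counts of Grem1 per library. Bmp4 over Bmp2 was 3.34 to 4.39 in colchicine and 2.25 to 3.92 in vehicle libraries, again with overlap through vehicle 3. Id1 over Id3 was -0.69 to -0.45 in colchicine libraries, against -1.57, -2.38, -0.98 and -0.34 in vehicle 1 to 4, so that the colchicine libraries lay close together inside the vehicle range. Summed over Bmp2, Bmp4 and Bmp6, the ligands had 147 to 263 TPM in colchicine and 30.1 to 127 TPM in vehicle libraries without overlap. These sums carry no TMM scaling, and the median change of all genes on log2(TPM + 1) was 0.35. By CPM, 21.1% of all tested genes were higher with colchicine without overlap. Taken singly, Bmp4 overlapped between the groups on TPM (52.8 in colchicine 1, 65.7 in vehicle 3).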
